A study of Mus musculus with 6 samples.

Results

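The 7 genes described here, Tcf7, Lef1, Klf2, Ccr7, S1pr1, Il7r and Igfbp4, were chosen by symbol as genes of resting, recirculating T cells. They are 7 of the 33696 genes in the count tables. The series measured single-cell RNA in CD45-positive, DAPI-negative cells sorted from mouse mammary tumors, and its title names MERTK inhibition together with cyclophosphamide in triple negative breast cancer. Each of the 5 libraries analysed is a group of its own: MRX, CTX, Combined, ctxd18t and combod18t. The labels do not spell these abbreviations out, and ctxd18t and combod18t carry day 18 in their names, while the series' text speaks of mice at day 7, treated 3 hours before harvest. The library labelled VC was not analysed here. Strain, age, tumor line and the number of mice in a library are not given in the sources used here, and whether a library pooled mice is not stated.

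T cells that have not met antigen, and a part of memory cells, stay out of the cell cycle and move between blood and lymphoid tissue. TCF-1 (the product of Tcf7) and LEF-1 are related HMG-box transcription factors of the Wnt pathway that maintain the naive and stem-like programme in T cells. KLF2 is a zinc-finger factor of quiescence that acts on S1pr1. CCR7 draws cells into lymph nodes along CCL19 and CCL21, S1PR1 lets them leave along a gradient of sphingosine 1-phosphate, and the IL-7 receptor alpha chain, encoded by Il7r, carries a survival signal. Igfbp4 encodes a secreted protein that binds insulin-like growth factors. Activation through the antigen receptor lowers most of these transcripts, and in tumors high levels mark resting or stem-like T cells rather than effector or exhausted cells.

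The libraries held between 4085 and 9064 cell barcodes, of which 3845 to 8506 were kept, at a median of 6239 to 8940 unique molecular identifiers (UMIs) per cell. Cells were clustered without the 7 genes and without the related gene lists used below, and named from other markers. This gave 346 to 1144 CD8 T-like, 289 to 1475 CD4 T-like, 136 to 279 regulatory T-like, 91 to 921 NK-like and 258 to 790 B-like cells in a library. Cd3e was detected in 92.8% to 98.8% of the CD8 T-like cells and Foxp3 in 73.5% to 83.0% of the regulatory T-like cells, and Cd8b1 in 74.6% to 83.2% of the CD8 T-like cells. Cd4 was detected in 67.2% of the CD4 T-like cells in CTX, 69.6% in Combined and 76.5% to 82.8% in the other libraries. With 1 library per group there is no replicate, so no p-value was computed. The 95% intervals given are exact, cover counting error only, and are too narrow for a difference between tumors.

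The day 18 libraries carry barcode sets that do not follow their names. In every barcode of a library, bases 8 and 9 of the 16 were the same. CTX and combod18t both had CA there, and Combined and ctxd18t both had GT. CTX and combod18t shared 34 whole barcodes and Combined and ctxd18t shared 21, while no other pair of the 5 shared any. Libraries with different sets cannot share a whole barcode, so these counts add nothing to the sets themselves. The protocol assigns a set to VC, MRX, CTX and the combination and to neither day 18 library. Whether the day 18 names are crossed was not tested, and every direction given for combod18t against ctxd18t rests on them as labelled.

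Of the transcription factors, Lef1 and Tcf7 were highest in CD4 cells and low in regulatory T cells. Levels are counts per 1000000 UMIs of the class in a library (CPM). In CD4 T-like cells Tcf7 stood at 392 CPM for MRX, 407 for CTX, 414 for Combined, and 526 and 473 for ctxd18t and combod18t. CD8 T-like cells, in the same order of libraries, had 207, 181, 211, 171 and 231 CPM of Tcf7, and regulatory T-like cells had 27.7, 20.1, 23.9, 43.0 and 100.02. The CD4 range lay above the CD8 range with no overlap, and regulatory T cells had less Tcf7 than NK-like cells in 5 of 5 libraries (69.2 to 183 CPM in NK cells). Lef1 followed with 793, 1198, 697, 1209.6 and 2010.1 CPM in CD4 cells. It stood at 577, 392, 414, 404 and 798 CPM in CD8 cells and at 151, 123, 116, 177 and 482 in regulatory T cells. CD4 cells exceeded CD8 cells in every library, by 1.37 to 3.06 times, although the class ranges overlapped across libraries.

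Klf2 was spread more widely. Its CD4 levels were 526, 632, 485, 968 and 848 CPM, its CD8 levels 384, 255, 385, 314 and 385, and its regulatory T levels 164, 97.5, 211, 117 and 262. The CD4 range again lay above those of the other 4 classes compared, and B-like cells (201 to 299.96 CPM) overlapped both CD8 and regulatory T cells. Neutrophil-like cells also held Klf2, at 319 to 653 CPM.

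The bases just upstream of the first annotated start of Lef1, Il7r and Klf2 are shown because these 3 members carry differences between libraries described below. They come from RefSeq on GRCm38.p6, an older build than the GRCm39 of the submitters' processing notes. Of the 7 members, 5 had a window there, and those of Tcf7 and Igfbp4 are not shown. Lef1 lies upstream at chr3:131110047-131110296 on the plus strand, Il7r at chr15:9529942-9530126 on the minus strand and Klf2 at chr8:72318812-72319061 on the plus strand, all outside the annotated genes. Capitals mark matches to the core bound by the KLF family, CACCC or its reverse complement GGGTG.
Lef1: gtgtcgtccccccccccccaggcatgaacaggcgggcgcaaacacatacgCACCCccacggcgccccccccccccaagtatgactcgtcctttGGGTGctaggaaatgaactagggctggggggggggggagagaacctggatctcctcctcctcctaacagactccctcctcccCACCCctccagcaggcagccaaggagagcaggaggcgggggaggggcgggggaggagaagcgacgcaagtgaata
Il7r: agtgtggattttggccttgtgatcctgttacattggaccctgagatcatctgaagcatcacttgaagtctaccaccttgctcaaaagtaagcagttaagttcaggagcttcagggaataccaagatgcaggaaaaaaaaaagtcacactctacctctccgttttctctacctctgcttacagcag
Klf2: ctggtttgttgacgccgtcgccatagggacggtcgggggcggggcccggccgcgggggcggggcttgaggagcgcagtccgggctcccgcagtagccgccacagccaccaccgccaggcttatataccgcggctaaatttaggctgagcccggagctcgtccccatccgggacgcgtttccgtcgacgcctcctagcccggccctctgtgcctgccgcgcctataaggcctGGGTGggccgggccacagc
The Lef1 window held 3 KLF core matches, the Klf2 window 1 and the shorter Il7r window of 185 bases none. That motif is common: 52% of 32851 promoter windows of 250 bases held it on either strand, and 43.2% of windows of 185 bases. Neither the TCF/LEF core CTTTGA (reverse complement TCAAAG, in 13.8% of windows of 250 bases and 9.99% of those of 185) nor the FOXO core GTAAACA (reverse complement TGTTTAC, in 3.17% and 2.27%) was found in the 3 windows. A match is a run of letters and says nothing of binding.

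Among the homing receptors, Ccr7 was shared by T and B cells, while S1pr1 was concentrated in CD4 cells. Ccr7 stood at 631, 729, 587, 519 and 711 CPM in CD4 cells (MRX, CTX, Combined, ctxd18t, combod18t). CD8 cells had 277, 289, 292, 240.01 and 462 CPM and regulatory T cells 419, 339, 368, 275 and 370. B-like cells had 345, 418, 358, 244 and 211 CPM, so the CD8, regulatory T and B ranges overlapped and their order is not resolved. Regulatory T cells had more Ccr7 than CD8 cells in MRX, CTX, Combined and ctxd18t, and less in combod18t. NK-like cells had 16.6 to 109 CPM, and migratory dendritic-like cells, which use CCR7 to reach lymph nodes, had 1429.6 to 2805 CPM.

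S1pr1 stood at 352, 421, 231, 307 and 476 CPM in CD4 cells, 2.06 to 3.98 times the CD8 level of the same library. CD8 cells had 143, 106, 112, 88.5 and 195 CPM, regulatory T cells 103, 65.8, 101, 53.4 and 179, and B-like cells 43.1 to 85.2. In NK-like cells S1pr1 was close to 0, at 0.37 to 29.2 CPM. Among the CD8, CD4, regulatory T, NK and B classes, Ccr7 and S1pr1 therefore had the same first and last class, CD4 and NK cells.

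Il7r reached all T classes, and Igfbp4 was largely held by CD4 cells. Il7r stood at 1034, 1015, 846, 902 and 1840.4 CPM in CD4 cells, at 430, 317, 357, 438 and 957 in CD8 cells, and at 552, 286, 426, 719 and 1256 in regulatory T cells. Every T class had its highest Il7r in combod18t. Gamma-delta T-like cells, which depend on IL-7, had 921 to 1965 CPM on 3 to 60 cells a library. Igfbp4 had 121, 256, 146, 357 and 277 CPM in CD4 cells against 28.6, 24.7, 27.0, 61.3 and 63.7 in CD8 cells, a ratio of 4.24 to 10.4 within a library, above the ratio of any other member (at most 3.98). Regulatory T cells had 3.96 to 45.7 CPM of Igfbp4, B-like cells 0.30 to 4.21, and NK-like cells 0 to 19.1.

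**Figure D1:**
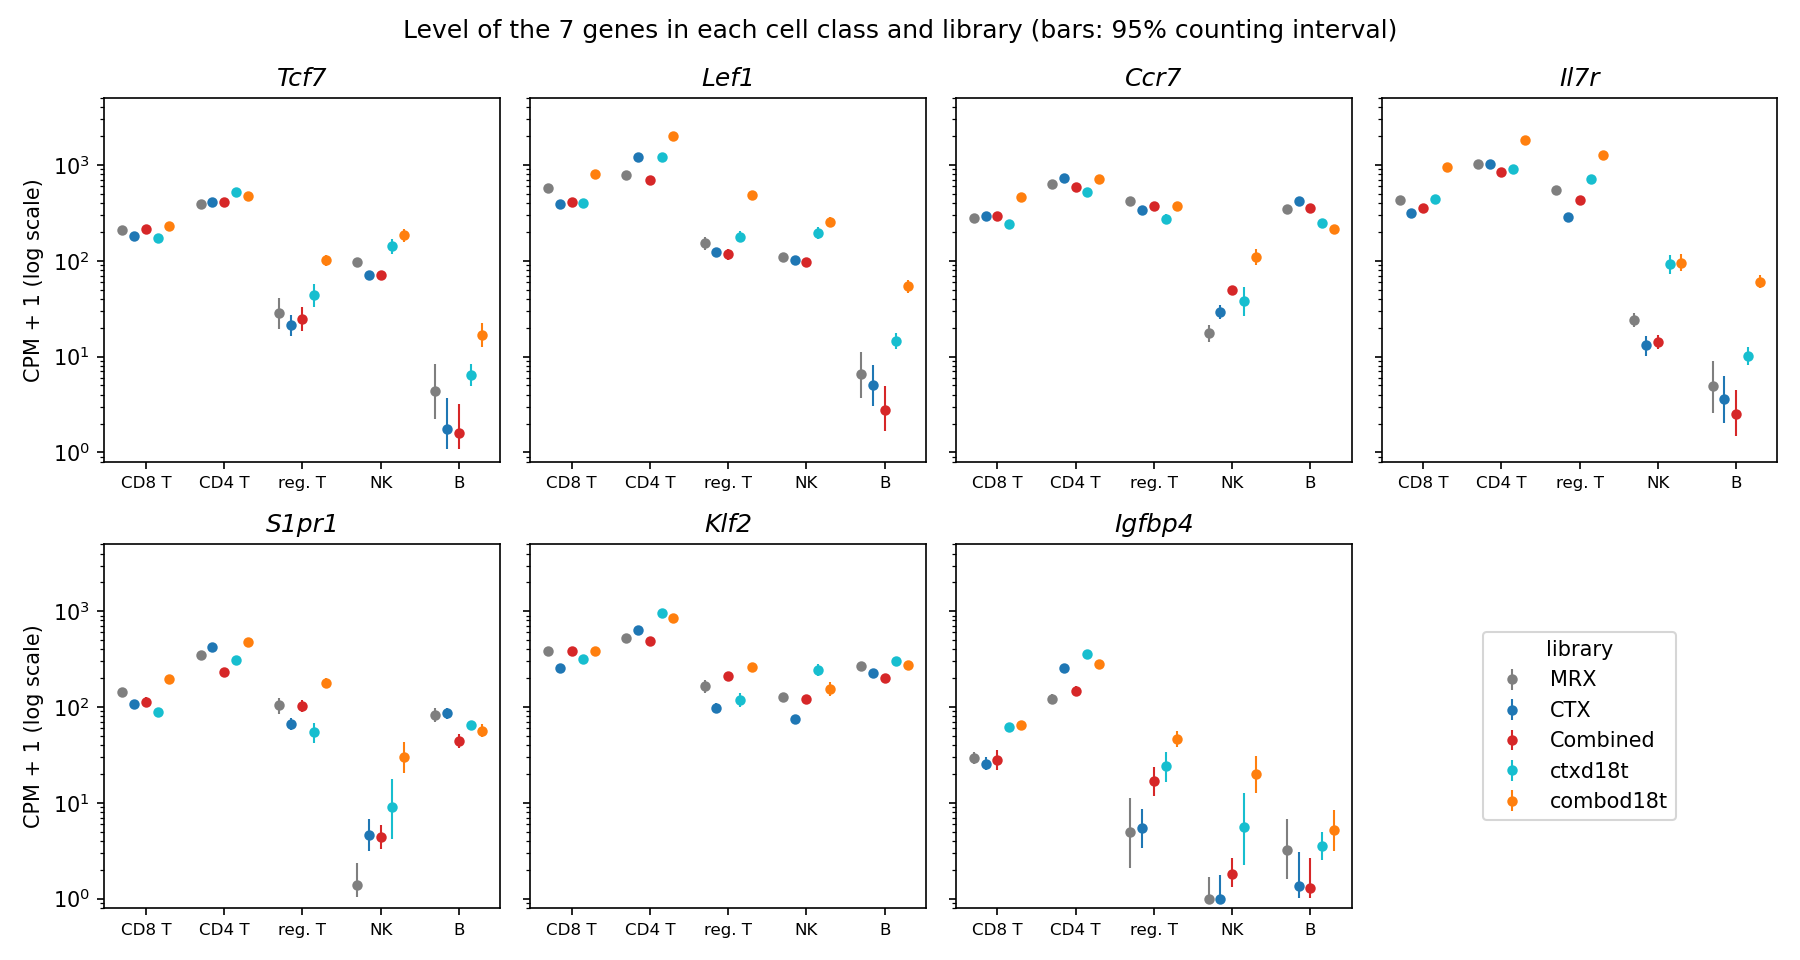
Level of each of the 7 genes (CPM + 1, logarithmic axis) in the 5 cell classes, with 1 point per library and exact 95% counting intervals. CD4 T-like cells have the highest median for all 7 genes, and their points do not overlap the next class for Tcf7, Ccr7, S1pr1, Klf2 and Igfbp4.

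T-cell transcripts were also counted in cells that should lack them, and more so in combod18t. B-like cells held Il7r at 1.497 to 9.11 CPM in 4 libraries and at 59.7 in combod18t. Lef1 in B-like cells was 1.80 to 13.6 CPM elsewhere and 53.4 in combod18t, and Tcf7 0.60 to 5.42 elsewhere and 15.8. CD4 cells were 38.2% of the kept cells of combod18t and 5.55% to 9.39% of those of the others. What free RNA or mixed droplets add to the T-cell levels was not tested.

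The T classes differed in how many of the genes a cell held. Each cell was thinned to 1000 UMIs so that depth is equal, and the members with at least 1 UMI were counted. CD4 cells held a mean of 2.36 members in MRX, then 2.87, 2.37, 2.76 and 3.43 through CTX, Combined, ctxd18t and combod18t. CD8 cells held 1.37, 1.43, 1.54, 1.16 and 1.88, and regulatory T cells 1.15, 0.82, 0.97, 0.96 and 1.44. All 3 classes were highest in combod18t. Cells with 4 or more members made up 49.5% (46.9–52.0) of CD4 cells in combod18t against 32.2% (27.4–37.3) in ctxd18t, and 20.4% (17.7–23.3) of CD8 cells against 9.88% (7.72–12.4). No B-like cell of 2558 reached 4 members, which allows a share of up to 0.117% (3 counts of the total), and 0.013% of 7840 monocyte-macrophage-like cells did.

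**Figure D2:**
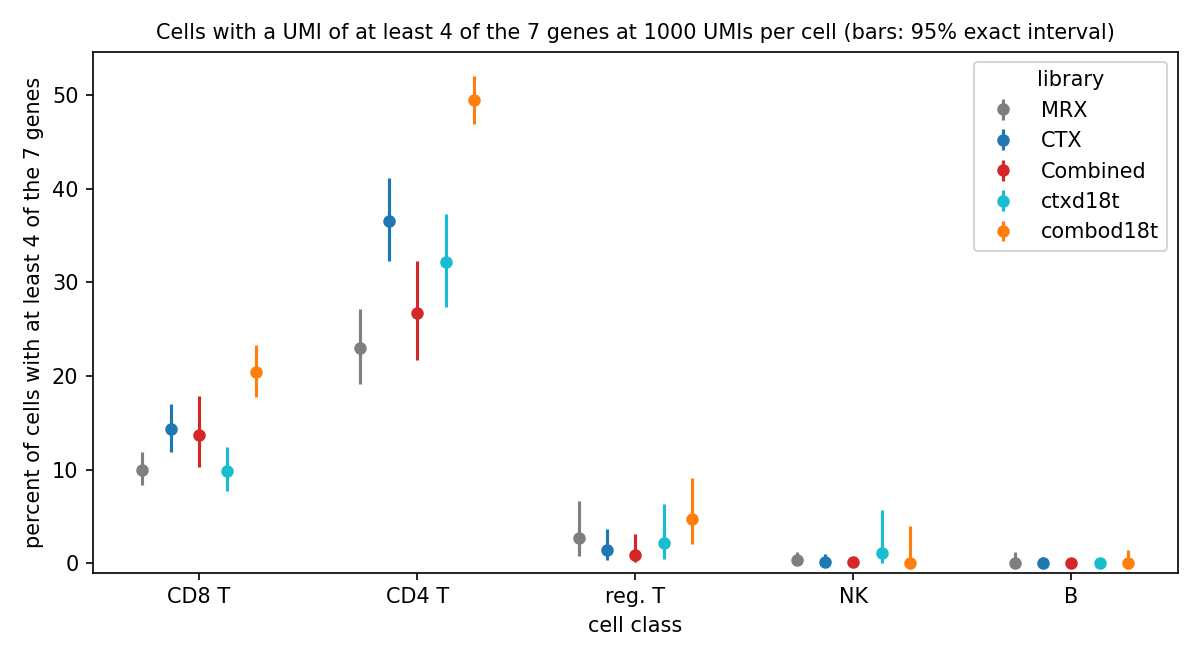
Percent of cells with at least 4 of the 7 genes after thinning to 1000 UMIs per cell, by class and library, with exact 95% binomial intervals. CD4 T-like cells of combod18t reach 49.5%, and B-like cells stay at 0.

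In CD8 cells each member had a UMI in a larger share of the cells that held any other member than of those that did not. Of thinned CD8 cells with a Ccr7 UMI, 63.8% also had Lef1, against 25.1% of those without Ccr7. Tcf7 was found in 31.6% of CD8 cells with Ccr7 and 13.6% without, and S1pr1 in 23.9% with Klf2 and 9.16% without. In CD4 cells the corresponding contrasts were smaller: Lef1 in 69.9% with Ccr7 and 59.0% without, and Tcf7 in 36.0% with and 33.1% without. Regulatory T cells had pairs of either kind: Lef1 in 35.5% of the 31 cells with Tcf7 and 12.8% without, but Tcf7 in 2.24% with Il7r and 3.94% without, and S1pr1 in 9.33% with Ccr7 and 10.2% without. These shares pool the 5 libraries and describe cells, with no test.

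The CD8 class split into clusters that differed several-fold in every member. Cluster numbers are used because the split rests on other genes, and levels pool the libraries, which fill the clusters unequally. Cluster 3 (1166 cells, led by Sidt1 and Pde2a) held 413 CPM of Tcf7, 1360.2 of Lef1, 802 of Ccr7, 1205 of Il7r, 322 of S1pr1, 686 of Klf2 and 101 of Igfbp4 over all libraries. The small cluster 15 (134 cells) was alike, with 583 CPM of Tcf7 and 1125 of Klf2. The heat-shock genes Hspa1a and Hspa1b were among its leading genes, and it drew 71 cells from ctxd18t and 6 from combod18t. In cluster 2, led by the chemokine gene Ccl5 and the granzyme gene Gzmk, Lef1 was 242 CPM, Ccr7 87.5 and Igfbp4 2.70. Cycling cells of cluster 8, led by histone genes and Mki67, had 232 CPM of Lef1 and 71.1 of S1pr1. Cluster 7, led by genes that include the checkpoint receptors Pdcd1, Havcr2 and Lag3, took 259 of its 560 cells from ctxd18t and 241 from combod18t. It had 62.6 CPM of Tcf7, 147 of Lef1, 35.9 of S1pr1 and 97.4 of Klf2. Within ctxd18t its Ccr7 was 119 CPM, against 22.3 in cluster 2 and 99.9 in cluster 8, and within combod18t it was 318 CPM against 38.2 and 274. Il7r in cluster 7 was 271 CPM in ctxd18t, below cluster 2 (309.6), and 579 in combod18t, above it (414).

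Among CD4 cells, clusters 1, 6 and 16 carried the whole set. Lef1 was 2339 CPM in cluster 1, 1975 in cluster 6 and 2306 in cluster 16. Igfbp4 was 361, 477 and 524 CPM there, against 22.2 in cluster 5 and 12.03 in cluster 12. Cluster 5 (842 cells), led by immunoglobulin transcripts and by Tnfsf8, kept Ccr7 (589 CPM) and Il7r (740 CPM) with 354 CPM of Lef1. Cluster 12, with Il17f and Ccr6 among its leading genes, kept Il7r at 1773 CPM with 125 of Lef1 and 115 of Ccr7. Cluster 16 was led by the heat-shock genes Hspa1a and Hspa1b and by Jun, had the highest Klf2 of any T cluster (1998 CPM), and drew 85 of its 116 cells from ctxd18t. The regulatory T class was 1 cluster with Il7r and Ccr7 (629 and 352 CPM) but 43.5 CPM of Tcf7. An unnamed cluster of 330 cells, both CD4 and CD8, with Ccl1 and Ifng among its leading genes had 554 CPM of Ccr7 beside 20.2 of Klf2 and 10.2 of S1pr1, so Ccr7 was not tied to S1pr1 in all T cells.

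**Figure D3:**
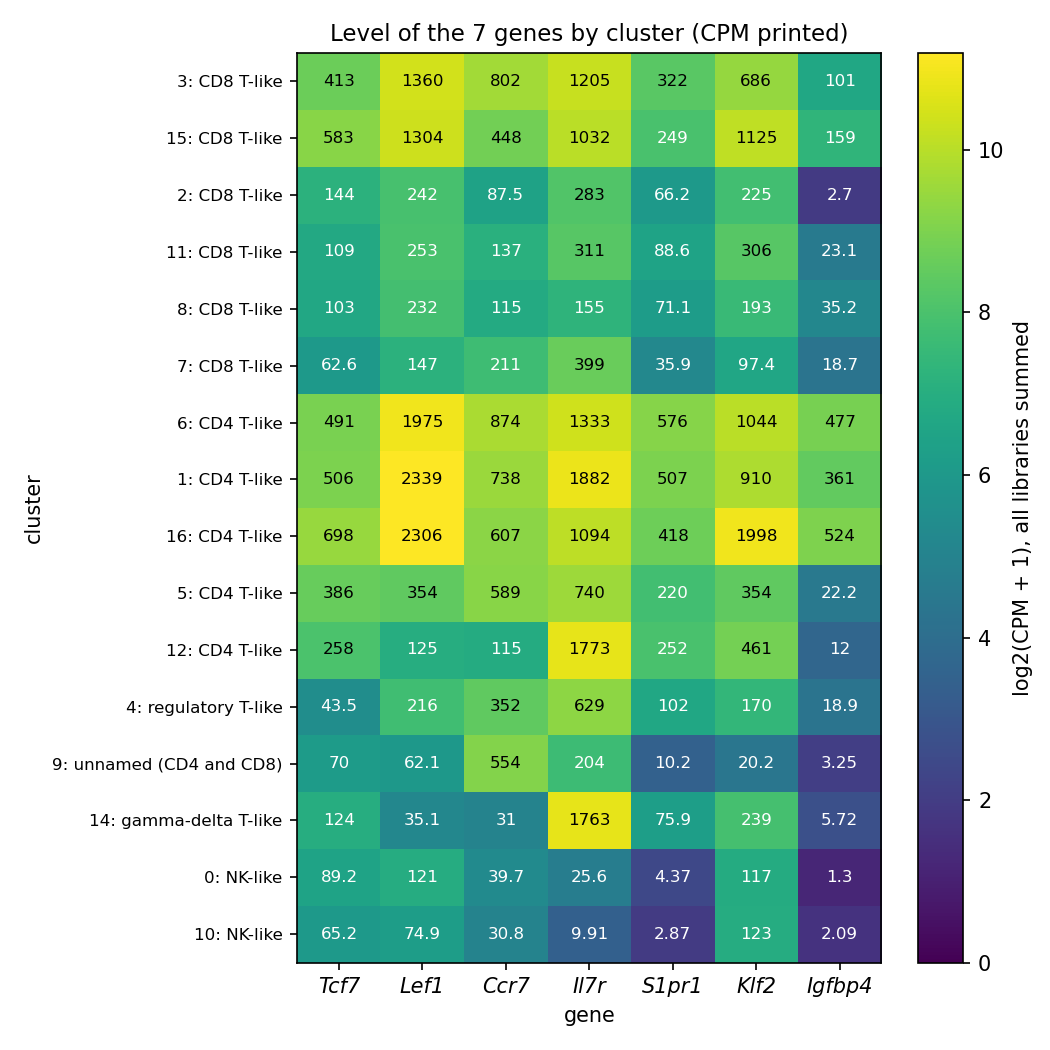
Level of each gene in each T and NK cluster over all 5 libraries, as colour on a log scale of CPM + 1. CD8 clusters 3 and 15 and CD4 clusters 1, 6 and 16 are high in all 7 genes, while CD4 cluster 12 is high in Il7r with low Lef1.

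The libraries differed in how their T cells were divided among these clusters. In CD8 cells, clusters 3 and 15 together held 29.2% of cells for MRX, 36.4% for CTX, 39.9% for Combined, 26.1% (22.8–29.6) in ctxd18t and 45.5% (42.1–49.0) in combod18t. Cluster 15, with its heat-shock genes, made up 71 of these 175 cells in ctxd18t and 6 of 380 in combod18t, and the day 18 CD8 ratios with the same mix of clusters leave it out. Cluster 7 held 38.6% and 28.9% of CD8 cells in ctxd18t and combod18t and 1.16% to 5.61% in the other libraries. For CD4 cells, clusters 1, 6 and 16 together held 37.0%, 64.4%, 38.8%, 52.1% and 85.8% in the same order of libraries. Which cluster held them changed: cluster 6 had 58.9% of CD4 cells in CTX, and cluster 1 had 79.6% in combod18t. These clusters were put together after their member levels had been seen, so the sums are a description, and with 1 library per group a cluster drawn mostly from 1 library may be that library.

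**Figure D4:**
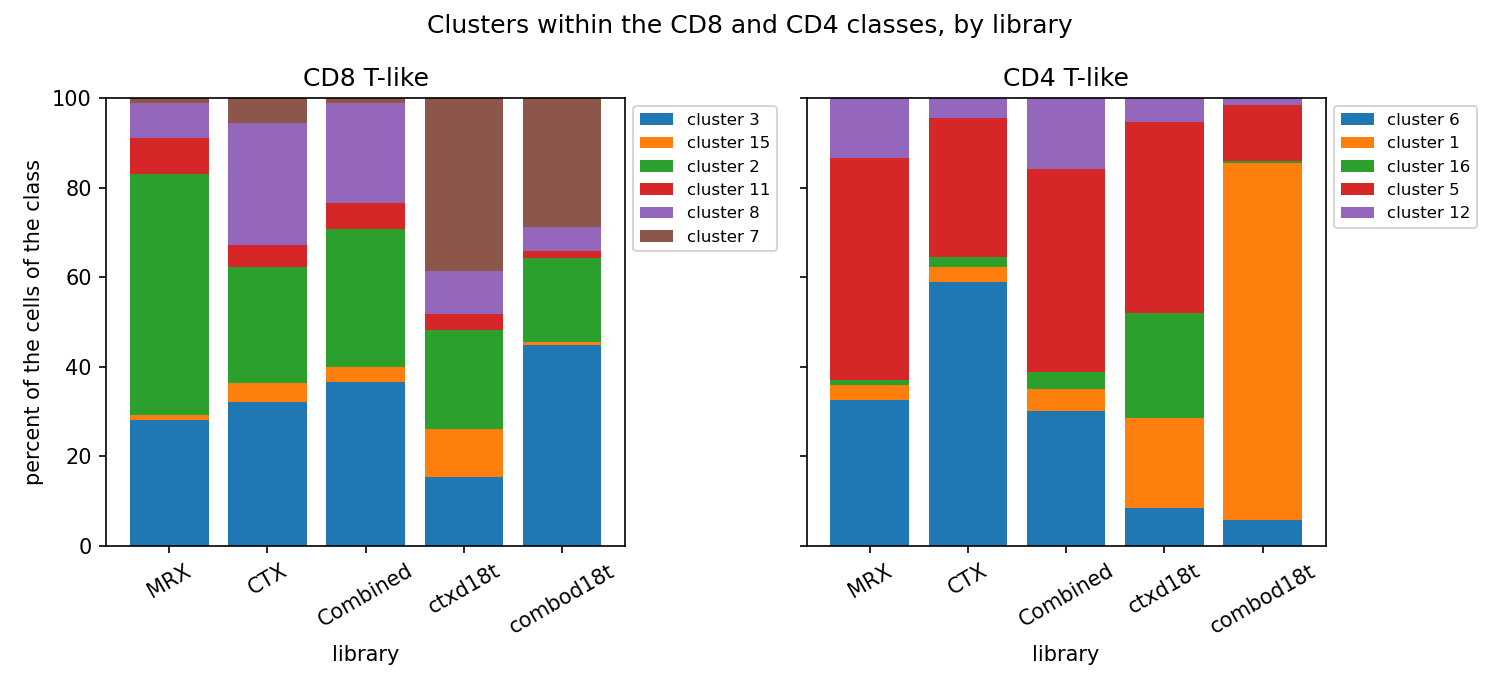
Percent of the CD8 T-like and CD4 T-like cells of each library that fall in each cluster. Cluster 1 holds 79.6% of CD4 cells in combod18t, and cluster 6 holds 58.9% in CTX.

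Combined was compared with CTX, and combod18t with ctxd18t, the 2 pairs in which the labels set a combination beside CTX. Differences are log2 ratios of CPM + 1, a gene is counted as changed in level when the ratio is at least 1 in size, and the same count over all expressed genes of the class is given as background.

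In CD8 cells, Klf2 had the largest ratio of the 7 members between Combined and CTX. Its log2 ratio was 0.59 (0.47–0.71), from 255 CPM in CTX to 385 in Combined, a level also found in MRX. Tcf7 (0.22, 0.07–0.37) and Il7r (0.17, 0.05–0.29) were slightly higher, and the intervals of Lef1 (0.08), Ccr7 (0.02), S1pr1 (0.08) and Igfbp4 (0.12) included 0. Inside clusters Klf2 was 1.09 (0.79–1.41) higher in cluster 2 and 0.43 (0.27–0.58) in cluster 3, and 0.28 in cluster 8 with an interval that included 0. It was lower in cluster 11, led by interferon-induced genes (−1.07, −1.95 to −0.28), on 20 cells in Combined and 37 in CTX. Lef1 (−4.55, −7.73 to −2.77) and Ccr7 (−3.36, −6.56 to −1.51) were lower in cluster 11 too, and Ccr7 was lower in cluster 2 (−0.54, −0.92 to −0.17). No member reached a ratio of 1, as did 0.0456% of 4382 expressed genes upward and 0.502% downward, and all 7 ratios were above 0 beside 59.9% of expressed genes. The median of the 7 was 0.12. It was −0.03 with the same mix of clusters, where Lef1 (−0.13), Ccr7 (−0.20), S1pr1 (−0.03) and Igfbp4 (−0.03) lay below 0, and −0.03 among lower-UMI cells, where Il7r was −0.20. Klf2 kept a ratio of 0.49 to 0.74 in the 9 other ways of processing.

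At day 18 the CD8 cells of combod18t were higher in Il7r, S1pr1, Lef1 and Ccr7. Il7r differed by 1.13 (1.07–1.19), S1pr1 by 1.13 (1.01–1.28), Lef1 by 0.98 (0.92–1.05) and Ccr7 by 0.94 (0.86–1.03). Tcf7 (0.43, 0.33–0.54) and Klf2 (0.29, 0.21–0.37) differed less, and Igfbp4 (0.06, −0.13–0.25) not beyond counting error. Thus 2 of 7 members reached a ratio of 1 upward beside 0.89% of 4382 expressed genes, and all 7 were above 0 beside 47.8%. The median was 0.94. With both libraries set to the same mix of clusters it was 0.43, with Il7r at 0.84, S1pr1 at 0.74 and Tcf7 at −0.01, so that neither Il7r nor S1pr1 reached 1. NK-cell markers summed to 1187 CPM in the CD8 cells of ctxd18t, 600.1 in combod18t and 626 to 946 in the others, with 7, 6 and 7 of the 12 above 10 CPM and 1, 1 and 2 to 4 at 0. That list shares Prf1, Gzma and Eomes with effector CD8 cells, and Ncr1, an NK receptor gene, was at 0.45 CPM in ctxd18t and 2.22 in combod18t. Neutrophil markers summed to 83.4, 29.3 and 9.79 to 14.5 CPM, with 3, 2 and none of the 9 above 10 CPM and none, none and 3 at 0. The part of these markers in the result was not tested.

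Inside the CD8 clusters the day 18 difference took more than one form. In cluster 3, Il7r (0.79, 0.69–0.89), S1pr1 (0.72, 0.52–0.93), Klf2 (0.42) and Lef1 (0.41) were higher in combod18t, Ccr7 was at 0.07 (−0.04–0.19), Tcf7 was lower (−0.37) and Igfbp4 lower still (−1.09, −1.36 to −0.84). In cluster 2 (149 cells in ctxd18t and 157 in combod18t), S1pr1 (−0.67, −1.24 to −0.14) and Klf2 (−0.69, −0.96 to −0.42) were lower in combod18t and Il7r higher (0.42, 0.21–0.63). Cycling cluster 8 (64 and 44 cells in that order) had all 7 higher, from 0.53 for Klf2 to 1.56 for Il7r. In cluster 7, with its checkpoint receptors, all 7 were also higher, among them Tcf7 at 106 against 28.7 CPM (1.85, 1.53–2.25) and S1pr1 at 67.6 against 11.002 CPM (2.51, 2.08–3.20). A Cd4 UMI was found in 34.4% of cluster 7 cells in combod18t and 25.5% in ctxd18t. Without those cells the 7 ratios ran from 0.80 for Il7r to 1.73 for Ccr7, with Tcf7 at 1.28 (0.80–1.84), S1pr1 at 22.3 against 6.71 CPM (1.60, 0.79–2.75), Lef1 at 81.8 against 25.4 CPM, where all cells had 252 against 64.3, and the interval of Igfbp4 (1.06, −0.39–3.27) including 0.

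In CD4 cells the first pair went the other way. Combined was lower than CTX in S1pr1 (−0.87, −1.05 to −0.69), Igfbp4 (−0.81), Lef1 (−0.78, −0.89 to −0.68), Klf2 (−0.38), Ccr7 (−0.31) and Il7r (−0.26), while Tcf7 was at 0.03 (−0.12–0.17). No member reached 1 in size beside 0.238% of 4206 expressed genes downward, and 6 of 7 were below 0 beside 35.6%. The median of the members was −0.38, and that of all expressed genes was 0.11. Under the median-of-ratios scale, which moves that centre to 0, the members' median was −0.49 and Tcf7 turned to −0.08. Combined had 30.1% of its CD4 cells in cluster 6 and CTX 58.9%, and with the same mix of clusters the median was 0.11. Only S1pr1 and Il7r then stayed below 0, S1pr1 at −0.38. Within cluster 6 itself, S1pr1 (−0.37, −0.63 to −0.11) and Il7r (−0.24) were lower in Combined, and Ccr7 (0.35) and Klf2 (0.34) were higher. In cluster 5 (147 cells in CTX and 131 in Combined), Lef1 (−0.37), Ccr7 (−0.28, −0.46 to −0.10) and S1pr1 (−0.60) were lower and Il7r higher (0.26, 0.06–0.45). Cluster 12 had lower Il7r in Combined (−0.67, −0.89 to −0.45), on 46 cells in Combined and 21 in CTX. B-cell markers in CD4 cells summed to 46.8 CPM in CTX and 113 in Combined, with 1 and 4 of the 11 above 10 CPM and 7 and none at 0. Monocyte and macrophage markers summed to 338 and 457 CPM, with 8 of the 15 above 10 CPM and 1 at 0 in each. The part of these markers in the result was not tested.

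At day 18, Il7r stood out in CD4 cells, at 1840.4 CPM in combod18t and 902 in ctxd18t, a log2 ratio of 1.03 (0.97–1.09). Lef1 (0.73, 0.68–0.79), S1pr1 (0.63, 0.53–0.74) and Ccr7 (0.45, 0.37–0.54) were higher as well, while Tcf7 (−0.15), Klf2 (−0.19) and Igfbp4 (−0.37) were lower. So 1 of 7 reached 1 upward beside 1.24% of 4206 expressed genes, and 4 of 7 were above 0 beside 47.1%. The median of 0.45 became 0.12 with the same mix of clusters, and Il7r became 0.88. That mix used clusters 1, 5 and 6, with 257 of 361 cells in ctxd18t and 1447 of 1475 in combod18t. It left out cluster 16, with its heat-shock genes, whose 85 cells in ctxd18t held 2299 CPM of Klf2, so the mix and the cells used changed together. Klf2 was 0.09 in that mix. With classes split by the cells' own UMIs, Klf2 (0.10) and Tcf7 (0.24) were above 0. B-cell markers summed to 370 CPM in the CD4 cells of combod18t, 203 in ctxd18t and 46.8 to 113 in the others, with 2, 5 and 1 to 4 of the 11 above 10 CPM and none, none and 0 to 7 at 0. Plasma-cell markers summed to 264, 103 and 85.7 to 96.6 CPM, with 3, 2 and 2 of the 7 above 10 CPM and none, 2 and 1 to 3 at 0. NK-cell markers summed to 53.8 CPM in combod18t, 96.6 in ctxd18t and 66.2 to 131 in the others. Above 10 CPM were 1, 6 and 2 to 4 of the 12, with 3, 3 and 2 to 5 at 0. Monocyte and macrophage markers summed to 92.8, 161 and 286 to 457 CPM. Above 10 CPM were 4, 5 and 8 of the 15, with none, none and 1 at 0. The part of these lists in the result was not tested.

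Igfbp4 and Il7r differed in opposite directions inside the resting clusters at day 18. In CD4 cluster 1, Igfbp4 was 812 CPM in ctxd18t (72 cells) and 330.0 in combod18t (1174 cells), a ratio of −1.30 (−1.45 to −1.15), while Il7r was 0.61 higher (0.50–0.72) and the other 5 members lay within 0.13 of 0. CD4 cluster 6 held 952 CPM of Igfbp4 in ctxd18t (31 cells) and 339 in combod18t (87 cells), a ratio of −1.49 (−1.84 to −1.14), with Il7r at 1.92 (1.63–2.22). CD8 cluster 3 held 202 CPM in ctxd18t and 94.2 in combod18t. Across MRX, CTX and Combined, Igfbp4 was 378 to 549.95 CPM in cluster 6, between the day 18 libraries, and 69.3 to 86.8 CPM in cluster 3, below both. Il7r in cluster 6 was 618 CPM in ctxd18t, 2339 in combod18t and 1069.5 to 1262 in the other 3. Cluster 1 held only 14 to 16 cells in each of those 3. Higher Il7r at day 18 was not limited to the resting clusters. In CD4 cluster 5 (154 cells in ctxd18t and 186 in combod18t), Il7r was higher in combod18t (1.30, 1.17–1.44). Ccr7 (0.72, 0.56–0.88) and Lef1 (0.58, 0.40–0.76) were higher there too, and Tcf7 was lower (−0.62, −0.79 to −0.45). At the level of the class, combod18t had more of its CD4 cells in the clusters with high Igfbp4, and with the same mix of clusters the CD4 ratio of Igfbp4 was −1.28 in place of −0.37.

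Regulatory T cells were lowest of the T classes in Tcf7, Lef1, Klf2, S1pr1 and Igfbp4, and differed in Klf2 in the first pair. Klf2 was 1.11 (0.89–1.34) higher in Combined than in CTX, S1pr1 0.62 (0.33–0.92) and Il7r 0.57 (0.44–0.72) higher, and Tcf7 (0.24), Lef1 (−0.08) and Ccr7 (0.12) did not differ beyond counting error. Igfbp4 rested on 31 and 13 counts and did not pass the expression filter. Klf2 alone of the 6 members that passed reached 1, beside 0.553% of 4521 expressed genes, and 5 of the 6 were above 0 beside 60.5%. Tcf7, at 20.1 CPM in CTX and 23.9 in Combined, is among the 6 only through its level in combod18t. The median was 0.41 over the 6 that passed and 0.57 with Igfbp4 included, and the latter became 0.01 in thinned cells, where S1pr1 was −0.12. Klf2 kept a ratio of 0.94 to 1.29 in the 9 other ways of processing.

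At day 18, regulatory T cells of combod18t were higher in S1pr1 (1.73, 1.37–2.14), Lef1 (1.44, 1.24–1.66), Tcf7 (1.20, 0.78–1.68), Klf2 (1.15, 0.90–1.43), Il7r (0.80, 0.70–0.91) and Ccr7 (0.43, 0.25–0.61). Tcf7 passed the expression filter only through its level in combod18t and Igfbp4 did not pass, so neither is counted. Of the other 5, 3 reached 1 upward beside 1.61% of 4521 expressed genes, and all 5 were above 0 beside 45.1%. The median of the 7 was 1.15. Much of the Tcf7 signal came from few cells: 10 cells held 85.2% of its counts in ctxd18t and 46.6% in combod18t. The ratios moved with the processing, Tcf7 to −0.32 at finer clustering and Lef1 to 0.09 and Klf2 to 0.04 in lower-UMI cells. At 1000 UMIs per cell, Il7r was found in 65.3% (57.6–72.4) of regulatory T cells in combod18t and 44.9% (36.3–53.6) in ctxd18t, beside 11.6% and 10.8% of monocyte-macrophage-like cells and 4.31% and 0.51% of B-like cells. For the other 6 members the intervals of these shares overlapped, as for Lef1 at 20.0% (14.3–26.8) and 11.8% (6.88–18.4). Plasma-cell markers summed to 1221 CPM in the regulatory T cells of combod18t and 88.0 to 122 in the other libraries. Of the 7 markers 4 were above 10 CPM there against 2 elsewhere, and 2 were at 0 against 3. NK-cell markers summed to 74.4 CPM in combod18t, 139 in ctxd18t and 70.3 to 156 in the others. Above 10 CPM were 3, 6 and 3 to 5 of the 12, with 4, 4 and 2 to 4 at 0. Monocyte and macrophage markers summed to 538, 765 and 506 to 591 CPM. Above 10 CPM were 5, 9 and 8 of the 15, with 2, 1 and 1 to 3 at 0. The part of these markers in the result was not tested.

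**Figure D5:**
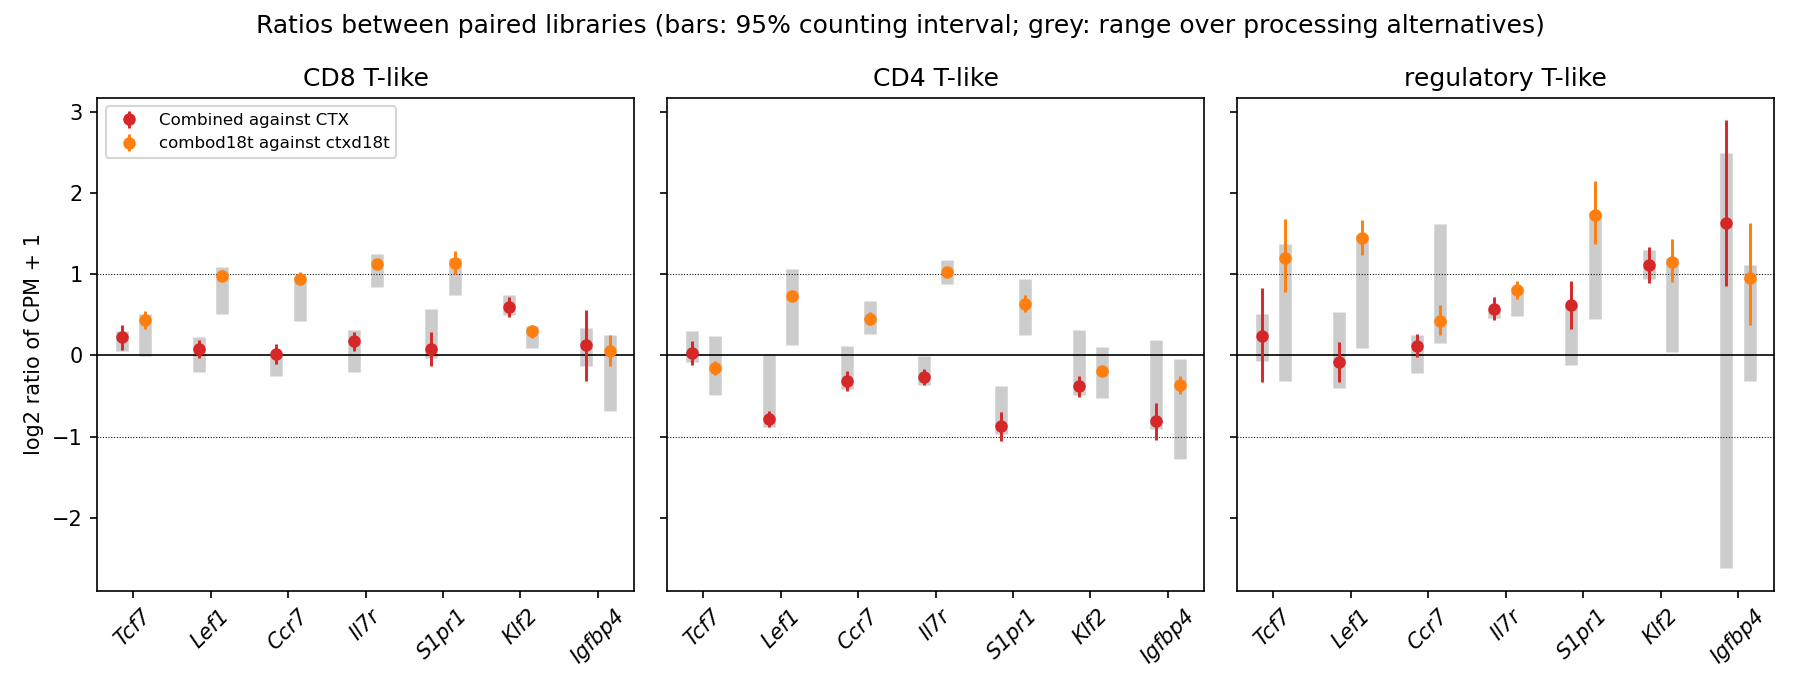
Log2 ratio of each gene in CD8, CD4 and regulatory T-like cells, for Combined against CTX and for combod18t against ctxd18t, with exact 95% counting intervals. In CD4 cells Lef1, Ccr7, Il7r and S1pr1 lie below 0 in the first pair and, with the day 18 libraries as labelled, above 0 in the second; with those names exchanged all 4 would lie below 0 in both.

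NK and B cells carried the set in part. In NK-like cells Combined exceeded CTX in Ccr7 (0.78, 0.52–1.08) and Klf2 (0.70, 0.53–0.88), while Tcf7 and Lef1 were at 0.00 and −0.06. At day 18 Ccr7 was 1.54 (0.98–2.18) higher and Klf2 lower (−0.65, −0.96 to −0.34) in combod18t, on 98 cells in ctxd18t and 91 in combod18t. Tcf7 (0.38, 0.05–0.73) and Lef1 (0.37, 0.08–0.66) were also higher there, and the interval of Il7r (0.06) included 0. S1pr1 (1.74, 0.64–3.29) and Igfbp4 (1.84, 0.47–4.07) were higher on 29 against 7 and 19 against 4 counts and did not pass the expression filter. Ccr7 passed it in NK cells only through combod18t, so no count is given. In B-like cells S1pr1 was lower in Combined than in CTX (−0.97, −1.29 to −0.68). At day 18 Il7r (2.59) and Lef1 (1.90) were higher in the B-like cells of combod18t, at the low levels given above, and both passed the expression filter only through that library. Ccr7, at 244 CPM in ctxd18t and 211 in combod18t, was lower in combod18t (−0.21, −0.35 to −0.08). The B-like class joins 2 clusters, the second with 194 of 790 cells in ctxd18t and 34 of 258 in combod18t. In the first alone Il7r was 2.21 and 63.4 CPM (4.33) and Lef1 4.62 and 56.3 CPM (3.35), while Ccr7 (−0.46, −0.60 to −0.33) and S1pr1 (−0.34, −0.62 to −0.07) were lower. Plasma-cell markers in the B-like class summed to 978 CPM in ctxd18t, 3173 in combod18t and 595 to 633 in the others, with 4, 5 and 4 of the 7 above 10 CPM and 1, none and 1 at 0. NK-cell markers summed to 37.4, 130 and 50.3 to 80.1 CPM, with 1, 3 and 2 of the 12 above 10 CPM and 4, 3 and 3 to 6 at 0. Monocyte and macrophage markers summed to 861, 1477 and 1420 to 1706 CPM. Above 10 CPM were 4, 9 and 5 to 7 of the 15, with none, 1 and 0 to 1 at 0. The T-cell gene Cd3e was found in 3.54% of B-like cells in ctxd18t, 7.36% in combod18t and 0.63% to 1.04% in the others. Cd4 was found in 0.76%, 3.49% and none. The part of these markers in the difference was not tested.

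Other genes of these pathways were read from 6 lists chosen by function, with a ratio of at least 1 counted as above. In CD8 cells at day 18, 5 of 18 expressed quiescence regulators were higher in combod18t and none lower, beside 0.89% of expressed genes higher, with a list median of 0.43 beside −0.02 for all expressed genes. Among them were Bach2 (1.35), a repressor that restrains effector differentiation, and the phosphatase gene Dusp10 (1.12). Effector genes were lower: 6 of 26 were lower and none higher, beside 0.776% of expressed genes lower, 25 of 26 were below 0, where 47.8% of expressed genes were above 0, and the list median was −0.63. Prf1 (−1.92), Gzmb (−1.59) and Gzma (−1.48), whose products kill target cells, and the chemokine gene Ccl5 (−1.39) led them. The homing list of that class had 10 of 15 genes below 0, with a median of −0.11. None of 13 resting T-cell markers (median 0.13) and none of 10 genes of the IL-7 list (median 0.27) reached 1. Igf1r, the receptor of the growth factors that IGFBP4 binds, was 1.45 (1.20–1.80) higher, at 51.3 CPM in combod18t and 18.1 in ctxd18t. Of this pair only combod18t reached the 50 CPM of the expression filter, so no count is given for its list.

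Regulatory T cells of combod18t showed 4 of 17 quiescence regulators higher and none lower (median 0.40 beside −0.04), beside 1.61% of expressed genes higher, namely Bcl2 (2.08), Bach2 (2.04), Klf3 (1.397) and Foxp1 (1.38). Their effector list had 4 of 22 lower and none higher (median −0.40), beside 0.818% of expressed genes lower, with Gzmb at −1.38. Their homing list had 1 of 15 genes lower (−1.21) and none higher, beside the same 0.818%. Of the 15, 8 were below 0 (median −0.02), where 45.1% of expressed genes were above 0. None of 9 resting T-cell markers (median 0.11) or 12 genes of the IL-7 list (median 0.05) reached 1. In CD4 cells 11 of 16 effector genes were lower in combod18t (median −1.60), led by Ifng (−3.39), Zeb2 (−2.79) and Mki67 (−2.37), beside 4.92% of expressed genes lower. In that class the homing list was also lower, with 6 of 13 past 1 and none higher (median −0.88), and the quiescence list was divided, 2 higher and 2 lower of 20, beside 1.24% of expressed genes higher. Of the CD4 resting markers 1 of 13 was higher, Actn1 (1.01), and of the IL-7 list 1 of 12 was lower, Il2rb (−1.42).

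For Combined against CTX, the CD8 and CD4 effector and quiescence lists had fewer genes past 1 than at day 18. In CD8 cells none of 18 quiescence regulators and 1 of 26 effector genes reached 1, Eomes at −1.06, beside 0.0456% of expressed genes higher and 0.502% lower. In CD4 cells 3 of 16 effector genes were higher beside 0.927% of expressed genes, among them Ifng (2.13) and Mki67 (1.29), together with the chemokine receptor genes Ccr4 (1.31) and Ccr2 (1.23) of the homing list (2 of 13) and Il2rb (1.05) of the cytokine receptor list (1 of 12). None of 13 resting T-cell markers reached 1, with a median of −0.37 beside 0.11 for all genes. In regulatory T cells Klf3 (1.53) and Socs3 (1.19) were the 2 of 17 quiescence regulators past 1, beside 0.553% of expressed genes higher, and the cytokine-signal inhibitor gene Socs1 (1.30) was the 1 of 12 in the IL-7 list. Their effector list had 1 of 22 higher, Gzma (1.44), and 3 lower, Havcr2 (−1.42), Gzmk (−1.26) and Zeb2 (−1.11), beside 0.398% of expressed genes lower, as many past 1 as at day 18.

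The members fell into separate patterns when followed over the 25 combinations of 5 classes and 5 libraries. Pearson's r of log2(CPM + 1) was 0.96 for Tcf7 with Lef1 and 0.96 for Ccr7 with S1pr1, but 0.04 for Tcf7 with Ccr7, with B cells high in Ccr7 and low in Tcf7 and NK cells the reverse. Among the 15 combinations of T classes, Tcf7 and Ccr7 had an r of 0.52, and Lef1 and Klf2 one of 0.93. Of 5503 genes compared, those most like each member included Gm2682 and Bicdl1 for Tcf7, Emb and Prkcq for Lef1, and Pik3ip1, Rnf167 and Gypc for Klf2. They were S1pr1, Sgms1 and Gm8369 for Ccr7, Ccr7, Gm8369 and Il6ra for S1pr1, Lrig1, Bcl11b and Ubash3a for Il7r, and Scg5, Dusp10 and Lhfpl3 for Igfbp4. The r of the nearest gene was 0.90 for Klf2 (Pik3ip1), 0.96 for Igfbp4 (Scg5) and 0.98 for Il7r (Lrig1). Classes of 1 library share its depth and its free RNA, so these values describe the 25 points and are not a test.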

How the data were processed

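Single-cell counts of UMIs per gene were deposited by the authors, who used Cell Ranger 9.0.1 per the labels' protocols, and Seurat 5.2.0 and GRCm39 per the submitters' processing notes. The 10x 3' kit with on-chip multiplexing was used. Cells with at least 200 genes and at most 15% mitochondrial counts were kept. A doublet caller marked almost no cell, so cells scoring above the top 5% cut were removed, 3.98% to 4.94% of a library because cells tied at the cut were kept. Cells were clustered with scanpy 1.11.5 and leidenalg 0.10.2 (2000 variable genes, 30 components, 15 neighbours, resolution 1), without the members and related lists. The thresholds for class names were set after the data had been seen. Counts were summed by class and library and compared as log2(CPM + 1), with exact conditional binomial intervals (scipy 1.17.1). Expressed genes had at least 100 counts over the 4 libraries of the pairs and 50 CPM in 1 of them. Besides the members, the text names list genes with a ratio of at least 1 in size and at least 50 counts, among the 10 largest of a class and comparison, and the 3 genes most like each member, of which some are not reported here. Lead genes of clusters were named after they had been seen. The members and lists were chosen with earlier results of these data known. The ratio script was tested on simulated data. Each group has 1 library, and VC was not analysed here.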

Additional observations from a re-analysis of the deposited data

Results flagged for a closer look

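In CD4 T-like cells 4 members had ratios of opposite sign in the pairs, with both counting intervals clear of 0. Lef1 was −0.78 for Combined against CTX and 0.73 for combod18t against ctxd18t, which differ by 1.51. Il7r was −0.26 and 1.03, which differ by 1.29, S1pr1 −0.87 and 0.63, which differ by 1.5, and Ccr7 −0.31 and 0.45, which differ by 0.77. In NK-like cells Klf2 was 0.70 and −0.65, a difference of −1.35. Each pair has 1 library per label, so the difference was not tested. The opposite signs rest on the day 18 names as labelled, which the barcode sets do not follow. With those names exchanged, each second value would change sign, so that the 4 CD4 members would be below 0 and Klf2 in NK-like cells above 0 in both pairs. With the same mix of clusters in each library, Lef1 and Ccr7 in CD4 cells were above 0 in both pairs, while S1pr1 (−0.38 and 0.25) and Il7r (−0.21 and 0.88) kept opposite signs.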

How the results depend on the processing

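No paired analysis was possible because each group is 1 library, and no group had a replicate to leave out. The CD8 median for Combined against CTX (0.12) ran from −0.03 to 0.30 and kept its sign in 7 of 9 alternatives. All lay within the counting interval of its median member, Igfbp4 (−0.31 to 0.56). That interval was the widest of the members, so staying inside it was a weak check. A pseudocount of 10 CPM and the median-of-ratios scale kept each of the 6 medians within the counting interval of its own median member.

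The CD8 median at day 18 (0.94) was 0.43 with the same mix of clusters and 0.79 in lower-UMI cells. The CD4 median for Combined against CTX (−0.38) was −0.24 in thinned cells, −0.12 at 500 genes, −0.077 with classes split by the cells' own UMIs, −0.092 with no doublet removal, 0.11 with the same mix of clusters and −0.14 in lower-UMI cells. At day 18 (0.45) it was 0.27, 0.61, 0.64 at resolution 2, 0.12 and 0.26, for thinned cells, own UMIs, finer clusters, same mix and lower-UMI cells. The regulatory T median for Combined against CTX (0.57) was 0.0087 in thinned cells and 0.32 with own UMIs. At day 18 (1.15) it was 0.72 in thinned cells, 0.84 at 500 genes, 0.63 with own UMIs, 0.74 at resolution 2, 0.81 with no doublet removal and 0.49 in lower-UMI cells.

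Of single members whose counting interval excluded 0, the following changed sign. Same mix of clusters, which also leaves out clusters with few cells in either library (cluster 16 for CD4 at day 18), turned Lef1 (0.014), Ccr7 (0.11), Klf2 (0.32) and Igfbp4 (0.18) in CD4 cells for Combined against CTX, Klf2 (0.090) in CD4 cells at day 18, and Tcf7 (−0.0084) in CD8 cells at day 18. Splitting by the cells' own UMIs turned Klf2 (0.066) in CD4 cells for Combined against CTX, and Tcf7 (0.24) and Klf2 (0.10) at day 18. Thinning turned S1pr1 (−0.12) and Igfbp4 (−1.49) in regulatory T cells for Combined against CTX and Igfbp4 (−0.31) at day 18. Lower-UMI cells, a choice made after seeing the data, turned Il7r (−0.20) in CD8 and Igfbp4 (−2.62) in regulatory T cells for Combined against CTX. Resolution 2 turned Tcf7 (−0.32) in regulatory T cells at day 18. The cause was not tested, and Igfbp4 in regulatory T cells is limited by its few counts.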
